A study of Mus musculus with 9 samples.

Results

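The S100 calcium-binding proteins were followed in mouse liver through 9 genes, S100a1, S100a4, S100a6, S100a8, S100a9, S100a10, S100a11, S100a13 and S100a16, which were found by their symbols among the 24008 genes listed in the count table. All 9 had enough reads to be tested, among 14379 tested genes. S100a8 and S100a9, whose products are abundant in neutrophils, are described apart from the other 7. RNA came from whole liver pieces of 9 mice on a high fat and high carbohydrate diet that induces nonalcoholic steatohepatitis (NASH), with 3 mice in each group and 1 library per mouse. The Flox mice, labelled WT, carry floxed IRF4 alleles and served as controls. F4MKO mice lack IRF4, a transcription factor, in skeletal muscle, through Myl-Cre and floxed IRF4 alleles, and F4MKO + FSTL1 mice are F4MKO mice in which the secreted glycoprotein FSTL1 was overexpressed in muscle. FSTL1, tagged with Flag, was delivered by an AAV8 vector with the muscle creatine kinase promoter, injected into the gastrocnemius. Per the methods of the study, Flox and F4MKO mice received AAV-GFP, a vector that the labels do not name, and livers were collected 4 weeks after injection. Its methods describe male mice on a C57BL/6J background, 8 weeks old, and give the diet before injection as 24 weeks in the experimental design and 12 weeks in the section on the virus. Flox and F4MKO livers address the effect of the muscle deletion on the liver, and F4MKO + FSTL1 livers the effect of restoring FSTL1 in muscle. The libraries held 20656976 to 24322984 counted reads. Hepatocyte markers summed to 71294 CPM (counts scaled to a common library size) in F4MKO replicate 1 and to 92501 to 112143 CPM in the other libraries. The muscle markers Ckm, Acta1 and Myh4 had at most 3 reads. Irf4 counts were 131, 132 and 101 in Flox, 120, 128 and 130 in F4MKO, and 10, 92 and 116 in F4MKO + FSTL1 livers, and do not check a deletion made in muscle. Fstl1 had 138, 186 and 147 reads in Flox, 456, 234 and 284 in F4MKO, and 114, 67 and 83 in F4MKO + FSTL1 livers, and these liver reads do not measure the vector in muscle. By the test described below, liver Fstl1 was lower in F4MKO + FSTL1 than in F4MKO livers (log2 fold change -1.53, edgeR adjusted p = 0.0017). Its difference between F4MKO and Flox livers did not pass (0.88, edgeR adjusted p = 0.0864). The paper reports unchanged liver FSTL1 mRNA by qPCR after the injection.

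S100 proteins are small proteins that mostly act as dimers and bind calcium through a pair of EF-hand motifs. Calcium opens a surface with which they bind target proteins inside the cell, such as annexins, myosin and the cytoskeleton, and some are also released and act on receptors of other cells. S100A10 is the exception, since its EF hands no longer bind calcium and it stays in a constitutively open form, bound to annexin A2. In liver tissue, S100A8 and S100A9 are known mainly from infiltrating neutrophils and monocytes, and S100A4 and S100A6 from fibroblasts, macrophages and bile duct cells.

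The 9 genes lay on chromosome 3 in a pair of blocks (RefSeq annotation of GRCm38.p6, the build called mm10 by the authors). The first, at chr3:90511034-90695721, spanned 184.7 kb and held, in order, S100a1, S100a13, S100a16, S100a4, S100a6, S100a8 and S100a9. The second, at chr3:93520496-93564645, spanned 44.15 kb and held S100a11 and S100a10. In the GENCODE vM21 annotation S100a1 and S100a9 were on the minus strand and the other 7 on the plus strand. S100a1 (chr3:90511034-90514330) and S100a13 (chr3:90514233-90524581) start head to head. As RefSeq gene spans they overlapped by 98 bases, while no exonic base was shared by any of the 36 pairs of members in GENCODE. Whether strand was used in counting is not given in the sources used here, so reads in that overlap cannot be assigned with certainty.

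RefSeq promoter windows, from 250 bases before the start of the gene to 50 bases after it, were found for 8 of the 9 genes, and S100a10 was not among them. They are printed 5′ to 3′ for the genes on which the results turn: S100a11 and S100a6, which were differentially expressed, the neutrophil genes S100a8 and S100a9, and S100a13, whose window shared 204 bases with that of S100a1. Capitals mark letters that matched a motif on either strand. The TATA box was searched as TATAAA. The GC box, which Sp proteins bind, was searched as GGGCGG. The site of AP-1, an immediate early factor, was searched as TGANTCA. The site of the myeloid and hepatic C/EBP factors was searched as TTGCNNAA. The site of TEAD, the partner of YAP, was searched as GGAATG. The sixth motif was the interferon-stimulated response element (ISRE), which IRF proteins bind.
S100a11 (chr3:93520246-93520545, plus strand): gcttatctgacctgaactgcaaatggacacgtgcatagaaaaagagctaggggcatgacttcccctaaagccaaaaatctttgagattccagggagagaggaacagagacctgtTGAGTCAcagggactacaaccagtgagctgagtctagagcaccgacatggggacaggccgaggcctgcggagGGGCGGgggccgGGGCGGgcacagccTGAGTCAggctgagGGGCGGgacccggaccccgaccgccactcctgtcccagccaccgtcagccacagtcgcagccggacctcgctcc
S100a6 (chr3:90612644-90612943, plus strand): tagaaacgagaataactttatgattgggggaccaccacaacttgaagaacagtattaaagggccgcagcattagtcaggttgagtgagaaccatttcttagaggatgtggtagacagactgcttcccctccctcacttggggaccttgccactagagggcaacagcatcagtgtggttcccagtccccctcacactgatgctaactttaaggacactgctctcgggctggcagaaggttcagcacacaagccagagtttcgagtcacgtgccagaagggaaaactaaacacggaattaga
S100a8 (chr3:90668821-90669120, plus strand): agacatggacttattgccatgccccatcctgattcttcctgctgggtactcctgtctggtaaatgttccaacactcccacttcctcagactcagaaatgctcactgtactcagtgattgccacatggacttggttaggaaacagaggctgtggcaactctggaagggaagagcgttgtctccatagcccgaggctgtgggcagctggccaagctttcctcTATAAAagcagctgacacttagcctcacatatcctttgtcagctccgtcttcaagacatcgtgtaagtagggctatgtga
S100a9 (chr3:90695672-90695971, minus strand): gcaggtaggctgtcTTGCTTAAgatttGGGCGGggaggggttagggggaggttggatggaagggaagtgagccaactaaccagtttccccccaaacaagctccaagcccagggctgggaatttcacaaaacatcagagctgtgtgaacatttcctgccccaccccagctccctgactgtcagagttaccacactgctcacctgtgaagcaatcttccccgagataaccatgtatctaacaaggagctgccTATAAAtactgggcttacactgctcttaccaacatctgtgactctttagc
S100a13 (chr3:90514185-90514484, plus strand): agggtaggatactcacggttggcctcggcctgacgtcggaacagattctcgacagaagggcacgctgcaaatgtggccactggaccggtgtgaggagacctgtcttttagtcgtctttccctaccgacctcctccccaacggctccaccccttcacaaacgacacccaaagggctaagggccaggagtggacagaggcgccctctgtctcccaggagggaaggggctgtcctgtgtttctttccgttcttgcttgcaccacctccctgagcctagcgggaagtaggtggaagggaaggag
The S100a11 window held AP-1 letters at positions 115 and 213 and GC boxes at 187, 199 and 227, counted from 1 at the 5′ end. No match for the 6 motifs was found in the S100a6 and S100a13 windows. S100a8 had a TATA box at position 221, and S100a9 had C/EBP letters at 15, a GC box at 28 and a TATA box at 251. Among 32851 promoter windows of this length, 13.6% held the TATA box, 35.7% the GC box, 7.81% the AP-1, 10.8% the C/EBP, 14.7% the TEAD and 3.44% the ISRE letters. No member window held the last pair of motifs, and a match or its lack describes only these letters. The S100a11 and S100a13 windows held 15 and 14 CpG dinucleotides, against 6 in S100a6, 4 in S100a8, 2 in S100a9 and a median of 7 over all windows.

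In Flox livers the 9 genes differed widely in level. Per kilobase of the longest transcript, S100a10 was highest, at 264 ± 35.7 CPM per kb (SD, n = 3 mice), followed by S100a1 at 185 ± 23.5, S100a11 at 69.0 ± 14.6, S100a13 at 28.7 ± 3.11 and S100a16 at 18.1 ± 1.38. S100a6 (3.597 ± 0.341 CPM per kb), S100a4 (2.90 ± 0.578), S100a9 (2.82 ± 0.595) and S100a8 (2.63 ± 1.18) were low. The first 5 thus lay between the 81.6th and 98.3rd percentile of 13387 tested genes with a known length, and the last 4 between the 42.0th and 49.0th, near the median of 3.75 CPM per kb. Neighbours in this order did not overlap between mice from S100a10 down to S100a6, whereas S100a6 overlapped with S100a4, S100a4 with S100a9, and S100a9 with S100a8. In F4MKO livers S100a11 stood at 138 ± 21.9 CPM per kb and overlapped with S100a1 (148 ± 21.4), and S100a13 overlapped with S100a16. In F4MKO + FSTL1 livers S100a11 stood at 37.3 ± 5.58 CPM per kb and overlapped with S100a13 (29.2 ± 5.12), and S100a10 overlapped with S100a1. By its mean S100a11 lay between S100a1 and S100a13 in all 3 groups, and its range met that of S100a1 in F4MKO and that of S100a13 in F4MKO + FSTL1 livers.

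Genes were compared on counts with edgeR's quasi-likelihood test, and a gene was called differentially expressed at a Benjamini-Hochberg adjusted p under 0.05 over all tested genes and a fold change above 1.5. In F4MKO compared with Flox livers 1 of the 9 S100 genes, S100a11, was differentially expressed, where 0.271% of all tested genes were, and 0.202% were higher. Between F4MKO + FSTL1 and F4MKO livers 2 of 9, S100a11 and S100a6, were called, both lower in F4MKO + FSTL1 livers, where 14.4% of all tested genes were called and 11.2% were called lower. In F4MKO + FSTL1 compared with Flox livers 0 of 9 were called (1 of 9 at an unadjusted p under 0.05 with edgeR, where 13.4% of all tested genes were, and 1 called with DESeq2), where 0.00695% of all tested genes were called. The CPM of the groups did not overlap for 2, 4 and 1 of the 9 genes in these comparisons, where this held for 21.8%, 39% and 18.2% of all tested genes. The median log2 fold change of the 9 genes was 0.32, -0.81 and -0.38, and that of all tested genes was -0.0030, 0.011 and -0.00038. The first pair of comparisons share the F4MKO libraries, and the others share Flox or F4MKO + FSTL1 libraries, so they are not independent of each other.

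**Figure D1:**
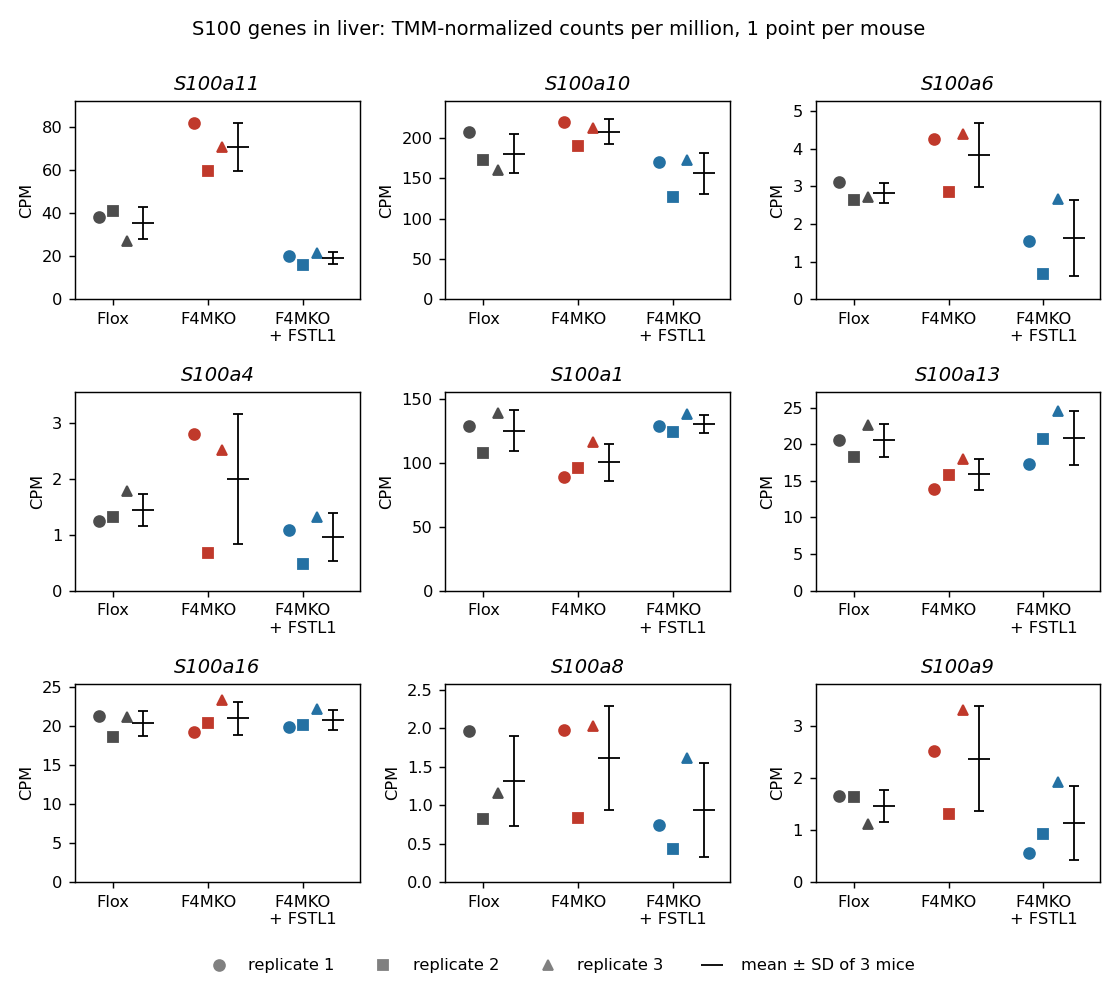
TMM-normalized CPM (linear axes from 0) of each S100 gene in the livers of Flox, F4MKO and F4MKO + FSTL1 mice, with a point per mouse and the mean ± SD of 3 mice beside them. S100a11 lay at 59.6 to 81.9 CPM in F4MKO livers, above all Flox (26.8 to 40.8) and F4MKO + FSTL1 values (15.9 to 21.3), whereas S100a16 stayed between 18.6 and 23.4 CPM in all 9 mice.

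S100a11 (chr3:93520496-93526288), a partner of annexin A1 in membrane repair and trafficking, showed the largest differences among the 9 genes. It measured 38.2, 40.8 and 26.8 CPM in the Flox livers, 81.9, 59.6 and 70.7 CPM in the F4MKO livers, and 20.05, 15.86 and 21.31 CPM in the F4MKO + FSTL1 livers. Each F4MKO value was above each Flox value, and each F4MKO + FSTL1 value was below both other groups. S100a11 rose 2.004-fold in F4MKO compared with Flox livers (log2 fold change 1.003, standard error 0.17, 95% interval 0.63 to 1.38, edgeR adjusted p = 0.0404). It fell 3.71-fold in F4MKO + FSTL1 compared with F4MKO livers (log2 fold change -1.89, standard error 0.18, 95% interval -2.279 to -1.503, edgeR adjusted p = 0.000356). Against Flox livers the F4MKO + FSTL1 value had a log2 fold change of -0.89 (standard error 0.18, 95% interval -1.27 to -0.50), which did not pass the test (edgeR adjusted p = 0.0777). That last difference passed with DESeq2 (log2 fold change -0.88, adjusted p = 0.00103), without a filter on low counts (-0.89, edgeR adjusted p = 0.00110) and without Flox replicate 3 (-1.05, edgeR adjusted p = 0.0415). The rise in F4MKO compared with Flox livers had an edgeR adjusted p of 0.0502 to 0.149 when any single library other than F4MKO replicate 2 was left out, with log2 fold changes of 0.84 to 1.12, and of 0.0402 without F4MKO replicate 2 (log2 fold change 1.11).

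S100a10 (chr3:93555117-93564645), the light chain of the annexin A2 complex, which organizes membranes and binds plasminogen at the cell surface, was the most abundant member. Its values were 208, 173 and 161 CPM in Flox, 220, 190 and 213 CPM in F4MKO, and 170, 127 and 172 CPM in F4MKO + FSTL1 livers. The F4MKO livers overlapped with Flox livers and were all above the F4MKO + FSTL1 livers. Its log2 fold changes were 0.20 (standard error 0.14, edgeR adjusted p = 0.498) in F4MKO compared with Flox and -0.41 (standard error 0.14, 95% interval -0.72 to -0.10, edgeR adjusted p = 0.0597) in F4MKO + FSTL1 compared with F4MKO livers. Neither passed the test, and the interval of the second includes changes above the 1.5-fold threshold as well as changes close to 0.

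The annexins that these proteins bind were compared within each library, where differences in library size cancel. Anxa2, which encodes annexin A2, averaged 32.1 ± 6.42 CPM in Flox, 74.98 ± 14.2 in F4MKO and 22.7 ± 11.6 in F4MKO + FSTL1 livers. It was lower in F4MKO + FSTL1 than in F4MKO livers (log2 fold change -1.72, standard error 0.29, edgeR adjusted p = 0.00302), and its difference between F4MKO and Flox livers did not pass (1.22, standard error 0.28, edgeR adjusted p = 0.0776). Reads of S100a10 per read of Anxa2 numbered 5.42, 5.34 and 6.28 in Flox, 2.42, 2.74 and 3.30 in F4MKO, and 4.72, 8.53 and 10.005 in F4MKO + FSTL1 livers. The F4MKO livers thus had fewer S100a10 reads for each Anxa2 read than every other liver. The log2 ratio differed by -1.02 between F4MKO and Flox and by 1.40 between F4MKO + FSTL1 and F4MKO livers (exact permutation test, two-sided, p = 0.1 for each, the smallest that 3 against 3 mice allow, 0.25 after Benjamini-Hochberg adjustment over 15 comparisons of 5 pairs of genes). Anxa1, which encodes annexin A1, averaged 7.84 ± 0.870, 11.1 ± 1.07 and 5.62 ± 0.277 CPM in the Flox, F4MKO and F4MKO + FSTL1 livers, and fell in F4MKO + FSTL1 compared with F4MKO livers (log2 fold change -0.98, standard error 0.13, edgeR adjusted p = 0.00144). Reads of S100a11 per read of Anxa1 ranged from 3.06 to 5.81 in Flox, from 5.57 to 7.92 in F4MKO and from 2.96 to 3.76 in F4MKO + FSTL1 livers. These ratios overlapped between Flox and each other group, and were lower in every F4MKO + FSTL1 liver than in any F4MKO liver (log2 difference -0.91, exact permutation p = 0.1).

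S100a11 also changed relative to its neighbour S100a10. There were 0.184, 0.236 and 0.167 reads of S100a11 per read of S100a10 in Flox livers, 0.372, 0.313 and 0.332 in F4MKO livers, and 0.118, 0.125 and 0.124 in F4MKO + FSTL1 livers. The 3 groups did not overlap in this ratio, and the F4MKO + FSTL1 livers lay within a narrow range. The log2 differences were 0.81, -1.47 and -0.66 for F4MKO against Flox, F4MKO + FSTL1 against F4MKO and F4MKO + FSTL1 against Flox (exact permutation p = 0.1 for each, the smallest possible, 0.25 adjusted over the 15 comparisons).

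**Figure D2:**
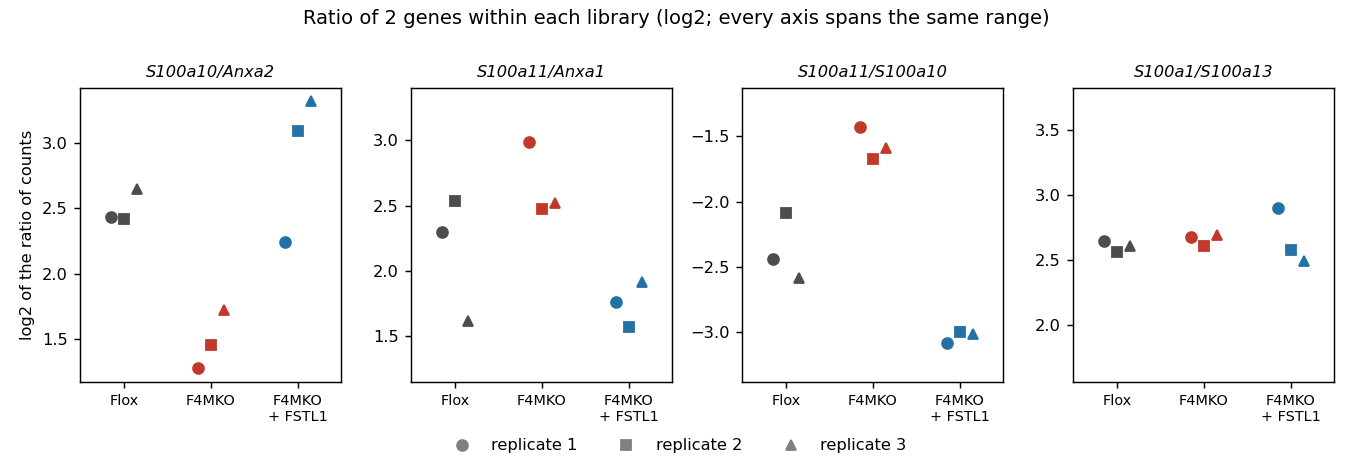
Log2 ratio of the counts of a pair of genes within each library, for S100a10 and Anxa2, S100a11 and Anxa1, S100a11 and S100a10, and S100a1 and S100a13, with a point per mouse; each axis is log2 and spans the same range around its own centre. The S100a10 to Anxa2 ratio was lowest in the 3 F4MKO livers (2.42 to 3.30 before the log), the S100a11 to S100a10 ratio separated all 3 groups, and the S100a1 to S100a13 ratio overlapped between groups.

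S100a6 (chr3:90612894-90614414), or calcyclin, which binds the ubiquitin ligase adaptor CACYBP and annexins and is a gene of proliferating and mesenchymal cells, was low in every liver. It measured 3.12, 2.62 and 2.71 CPM in Flox, 4.24, 2.85 and 4.39 CPM in F4MKO, and 1.54, 0.673 and 2.66 CPM in F4MKO + FSTL1 livers, from 14 to 120 reads per library. Every F4MKO + FSTL1 value was below every F4MKO value, although the highest F4MKO + FSTL1 and the lowest F4MKO liver were close. S100a6 fell 2.37-fold in F4MKO + FSTL1 compared with F4MKO livers (log2 fold change -1.25, standard error 0.36, 95% interval -2.04 to -0.45, edgeR adjusted p = 0.0321). The difference between F4MKO and Flox livers did not pass the test (log2 fold change 0.45, standard error 0.34, 95% interval -0.30 to 1.19, edgeR adjusted p = 0.536), nor did that between F4MKO + FSTL1 and Flox livers (-0.80, standard error 0.37, 95% interval -1.61 to 0.01, edgeR adjusted p = 0.382). The fall against F4MKO livers did not pass without F4MKO replicate 1, F4MKO replicate 3, F4MKO + FSTL1 replicate 1 or F4MKO + FSTL1 replicate 2 (log2 fold changes of -1.21 to -0.87, edgeR adjusted p of 0.0749 to 0.0948), nor with only the 6 libraries of these groups in the fit (-1.26, edgeR adjusted p = 0.0565).

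S100a4 (chr3:90603770-90606045), also called fibroblast-specific protein 1, binds the heavy chain of nonmuscle myosin and is expressed by fibroblasts, macrophages and other motile cells. Its values were 1.25, 1.31 and 1.78 CPM in Flox, 2.79, 0.670 and 2.51 CPM in F4MKO, and 1.07, 0.481 and 1.31 CPM in F4MKO + FSTL1 livers. F4MKO replicate 2 was below all Flox livers and replicates 1 and 3 were above all others, so that the F4MKO group spanned nearly the whole range. Its log2 fold changes were 0.47 (standard error 0.46, 95% interval -0.53 to 1.48) in F4MKO compared with Flox and -1.08 (standard error 0.49, 95% interval -2.14 to -0.01) between F4MKO + FSTL1 and F4MKO livers, and neither passed the test (edgeR adjusted p = 0.636 and 0.138). Without F4MKO replicate 2 the second was -1.48 and passed (edgeR adjusted p = 0.0162). Myh9, the gene of the myosin heavy chain it binds, was at 154 ± 26.1 CPM in F4MKO and 96.3 ± 11.1 CPM in F4MKO + FSTL1 livers and was differentially expressed between them (log2 fold change -0.67, standard error 0.13, edgeR adjusted p = 0.00552), and it was at 114 ± 5.97 CPM in Flox livers.

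S100a1 and S100a13, which start head to head, showed the opposite order of groups. S100A1 regulates calcium handling and energy metabolism in muscle, and S100A13 takes part in the release of the growth factor FGF1. S100a1 measured 129, 108 and 139 CPM in Flox, 88.9, 95.9 and 117 CPM in F4MKO, and 129, 124 and 138 CPM in F4MKO + FSTL1 livers, and S100a13 measured 20.6, 18.3 and 22.7, then 13.9, 15.7 and 18.0, then 17.3, 20.7 and 24.6 CPM in the same groups. For S100a1 all F4MKO + FSTL1 livers were above all F4MKO livers, and for S100a13 all F4MKO livers were below all Flox livers. The log2 fold changes in F4MKO compared with Flox livers were -0.32 for S100a1 (standard error 0.13, edgeR adjusted p = 0.239) and -0.37 for S100a13 (standard error 0.15, edgeR adjusted p = 0.239). Between F4MKO + FSTL1 and F4MKO livers they were 0.38 for S100a1 (standard error 0.13, edgeR adjusted p = 0.0563) and 0.39 for S100a13 (standard error 0.15, edgeR adjusted p = 0.0819), and neither gene passed the test in any comparison. There were 6.26, 5.90 and 6.11 reads of S100a1 per read of S100a13 in Flox, 6.39, 6.09 and 6.46 in F4MKO, and 7.46, 5.98 and 5.62 in F4MKO + FSTL1 livers. This ratio overlapped between all groups (exact permutation p from 0.3 to 1.0). Fgf1 was at 82.6 ± 18.7 CPM in Flox, 62.8 ± 6.59 in F4MKO and 133 ± 5.58 in F4MKO + FSTL1 livers, and rose in F4MKO + FSTL1 compared with F4MKO livers (log2 fold change 1.09, standard error 0.15, edgeR adjusted p = 0.00144).

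S100a16 (chr3:90537254-90543151), a widely expressed member, lay in a narrow range. It measured 21.3, 18.6 and 21.2 CPM in Flox, 19.3, 20.4 and 23.4 CPM in F4MKO, and 19.9, 20.1 and 22.2 CPM in F4MKO + FSTL1 livers. All groups overlapped, and the 95% intervals of its log2 fold changes ran from -0.19 to 0.28 in F4MKO compared with Flox, from -0.25 to 0.22 between F4MKO + FSTL1 and F4MKO and from -0.21 to 0.27 in F4MKO + FSTL1 compared with Flox livers. Changes above 1.5-fold thus lie outside all 3 intervals.

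**Figure D3:**
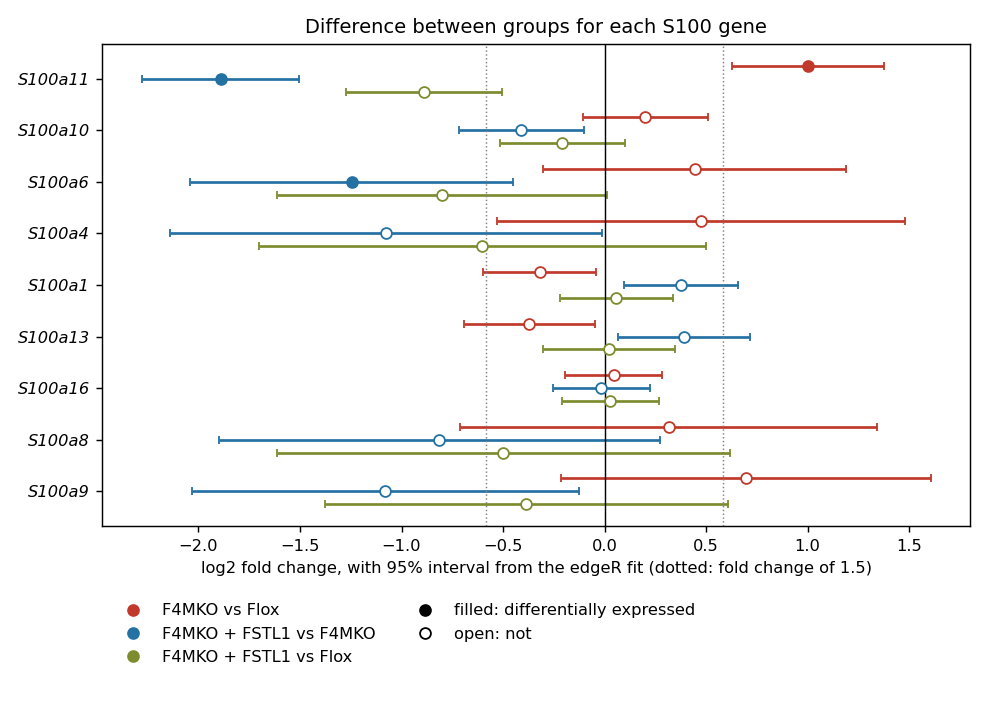
Log2 fold change of each S100 gene with its 95% interval from the edgeR fit, for F4MKO vs Flox, F4MKO + FSTL1 vs F4MKO and F4MKO + FSTL1 vs Flox; filled points are differentially expressed and dotted lines mark a fold change of 1.5. S100a11 is filled in the first pair of comparisons (1.003 and -1.89), S100a6 in the second (-1.25), and the intervals of S100a4, S100a8 and S100a9 are wide.

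S100A8 and S100A9 form calprotectin, a heterodimer stored in neutrophils and monocytes that binds metals and acts on TLR4 and RAGE when released. S100a8 (chr3:90669071-90670034) measured 1.96, 0.819 and 1.15 CPM in Flox, 1.98, 0.838 and 2.04 CPM in F4MKO, and 0.748, 0.433 and 1.62 CPM in F4MKO + FSTL1 livers, from 9 to 56 reads per library. S100a9 (chr3:90692630-90695721) measured 1.65, 1.64 and 1.11 CPM in Flox, 2.51, 1.30 and 3.31 CPM in F4MKO, and 0.561, 0.913 and 1.93 CPM in F4MKO + FSTL1 livers, from 12 to 83 reads. All groups overlapped for both genes, with F4MKO replicate 2 low and F4MKO + FSTL1 replicate 3 high within their groups. In F4MKO compared with Flox livers the log2 fold changes were 0.32 for S100a8 (95% interval -0.71 to 1.34, edgeR adjusted p = 0.776) and 0.70 for S100a9 (95% interval -0.22 to 1.61, edgeR adjusted p = 0.423). Between F4MKO + FSTL1 and F4MKO livers they were -0.81 for S100a8 (95% interval -1.90 to 0.27, edgeR adjusted p = 0.266) and -1.08 for S100a9 (95% interval -2.03 to -0.13, edgeR adjusted p = 0.0995). No comparison passed the test for either gene, and each interval reaches beyond 1.5-fold, while the interval of S100a9 between F4MKO + FSTL1 and F4MKO livers alone leaves out 0. The last value passed for S100a9 without a filter on low counts (-1.08, edgeR adjusted p = 0.0377), with transcript length and GC content corrected for (-1.25, edgeR adjusted p = 0.0318), without F4MKO replicate 2 (-1.37, edgeR adjusted p = 0.0427) and without F4MKO + FSTL1 replicate 3 (-1.68, edgeR adjusted p = 0.0248).

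The balance of S100a8 and S100a9 overlapped between all groups, with 0.506 to 1.19 reads of S100a8 per read of S100a9 in Flox, 0.617 to 0.790 in F4MKO and 0.487 to 1.32 in F4MKO + FSTL1 livers (exact permutation p from 0.4 to 0.9). Their summed level was 3.61, 2.46 and 2.26 CPM in Flox, 4.49, 2.14 and 5.35 CPM in F4MKO, and 1.31, 1.35 and 3.55 CPM in F4MKO + FSTL1 livers. Among other neutrophil genes the granule proteins were mostly scarce. Of 9 genes of granule proteins, 2 were tested, Ngp and Lcn2, and Mpo, Elane, Prtn3, Ctsg, Ltf, Camp and Mmp8 had too few reads, with at most 3 per library for Ctsg. Lcn2, which hepatocytes also express, made up most of that list, which summed to 40.0 to 42.6 CPM in Flox, 72.1 to 147 in F4MKO and 19.0 to 49.5 in F4MKO + FSTL1 livers, and Lcn2 fell in F4MKO + FSTL1 compared with F4MKO livers (log2 fold change -1.46, standard error 0.32, edgeR adjusted p = 0.00922). Of 11 neutrophil surface and secreted markers, 5 were tested, and Csf3r (log2 fold change -1.03, edgeR adjusted p = 0.00357) and Fpr2 (-1.02, edgeR adjusted p = 0.0312) were lower in F4MKO + FSTL1 than in F4MKO livers. Thus 2 of 5 were called lower, where 11.2% of all tested genes were. All 5 log2 fold changes were below 0. This list summed to 13.5 to 15.2 CPM in Flox, 16.9 to 18.6 in F4MKO and 7.69 to 10.6 in F4MKO + FSTL1 livers, with at most 3 reads per library for Ly6g and Trem1. The part of these markers in the S100a8 and S100a9 values was not tested, and in whole tissue fewer cells of a type and less RNA per cell cannot be told apart.

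The receptors through which released S100 proteins act were measured in the same livers. Of 9 receptor genes, 8 were tested, and Ager, the gene of RAGE, had no row in the table. With edgeR 0 of 8 were called in F4MKO compared with Flox livers (3 at an unadjusted p under 0.05, where 16.9% of all tested genes were, and 1 called with DESeq2). In F4MKO + FSTL1 compared with Flox livers 0 of 8 were called (1 at an unadjusted p under 0.05, where 13.4% of all tested genes were, and 0 with DESeq2). In F4MKO + FSTL1 compared with F4MKO livers 3 of 8 were lower and 0 higher, where 11.2% of all tested genes were called lower, with a median log2 fold change of -0.13 against 0.011 for all tested genes. Cd14, the coreceptor of TLR4, averaged 7.24 ± 1.16 CPM in Flox, 12.4 ± 2.05 in F4MKO and 4.35 ± 1.99 in F4MKO + FSTL1 livers, and fell (log2 fold change -1.52, standard error 0.27, edgeR adjusted p = 0.00346). Tlr4 fell as well (log2 fold change -0.72, standard error 0.19, edgeR adjusted p = 0.0204), and Cd36, a scavenger receptor that binds S100A8/A9 carrying fatty acids, fell likewise (log2 fold change -0.72, standard error 0.15, edgeR adjusted p = 0.00840). Inside the cell, 1 of 10 partner genes was higher (Fgf1) and 4 were lower (Anxa2, Anxa1, Ahnak and Myh9) in F4MKO + FSTL1 than in F4MKO livers, with a median of -0.19. Of all tested genes 14.4% were called in this comparison, and 11.2% were called lower. With edgeR 0 of 10 were called in the other comparisons, and 1 in each was called with DESeq2. At an unadjusted p under 0.05 with edgeR there were 4 in F4MKO and 3 in F4MKO + FSTL1 compared with Flox livers. Of all tested genes 16.9% and 13.4% were under it. Cacybp, the partner of S100A6, had log2 fold changes of -0.13, 0.14 and 0.01 and was not called in any comparison.

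Markers of some other cell types were lower in F4MKO + FSTL1 than in F4MKO livers, as S100a11 and S100a6 were. Comparing F4MKO + FSTL1 with F4MKO livers, 12 of 16 monocyte and macrophage markers, 8 of 12 tested stellate cell and fibroblast markers and 5 of 7 tested cholangiocyte markers were lower, and 0 of 10 endothelial and 0 of 8 lymphocyte markers were called with edgeR or DESeq2 (2 and 0 at an unadjusted p under 0.05, where 35.3% of all tested genes were). Among all tested genes 11.2% were called lower in this comparison. The endothelial markers had a median log2 fold change of 0.03, with 6 above and 4 below 0. The lymphocyte markers had a median of -0.45, with 0 above and 8 below 0, against 0.011 for all tested genes. Cholangiocyte markers summed to 74.5 to 114 CPM in Flox, 190 to 478 in F4MKO and 57.3 to 74.5 in F4MKO + FSTL1 livers, mostly as Spp1, which other cells also express. Epcam and Spp1 were higher in F4MKO than in Flox livers (log2 fold changes 2.01 and 2.05, edgeR adjusted p = 0.0359 and 0.0404), as was the macrophage gene Gpnmb (1.70, edgeR adjusted p = 0.0404). Of all tested genes 0.202% were called higher in that comparison. With edgeR 0 of 12 tested stellate cell and 0 of 5 tested neutrophil surface and secreted markers were called in it, and 5 and 0 with DESeq2. At an unadjusted p under 0.05 with edgeR there were 6 and 1, where 16.9% of all tested genes were. The macrophage list was mixed in that comparison, with 12 of 16 log2 fold changes above 0 and 4 below. The Kupffer cell genes Marco (-1.41) and Timd4 (-1.26), chosen after their values were seen, were lower in every F4MKO than in any Flox liver. Neither passed the adjusted test, and 21.8% of all tested genes did not overlap between these groups. Both were highest in Flox replicate 3 (38.3 and 11.1 CPM). Clec4f (-0.36) and Vsig4 (-0.33) overlapped between the groups, and Cd5l (0.08) and Adgre1 (0.05) were above 0. Stellate cell and fibroblast markers summed to 445 to 522, 603 to 798 and 286 to 395 CPM, and macrophage markers to 711 to 1116, 946 to 1055 and 418 to 654 CPM, in Flox, F4MKO and F4MKO + FSTL1 livers. Col1a1 averaged 14.9, 39.8 and 8.34 CPM in these groups, and its difference between F4MKO and Flox livers did not pass (edgeR adjusted p = 0.0610). By qPCR the paper reports the other direction, with Col1a1 and Col1a2 lower in F4MKO than in Flox livers. Why the directions differ was not tested. Between Flox and F4MKO livers the stellate cell, cholangiocyte, neutrophil granule, and neutrophil surface and secreted sums did not overlap, like S100a11. The granule sum was mostly Lcn2, and Ngp, the other tested granule gene, was below 0 (log2 fold change -1.40, edgeR adjusted p = 0.556). In the surface and secreted sum, Csf3r averaged 5.52 and 8.28 CPM and Fpr1 5.15 and 4.55 CPM in Flox and F4MKO livers. Of its 5 tested genes, 4 had log2 fold changes above 0 and 1 below. The macrophage sums overlapped. For S100a4, S100a6, S100a10 and S100a11 together the summed level was 251, 218 and 192 CPM in Flox, 309, 253 and 290 CPM in F4MKO, and 193, 144 and 197 CPM in F4MKO + FSTL1 livers. This set was chosen with earlier results of these data known, and its highest Flox and lowest F4MKO values were close. All 7 members other than S100a8 and S100a9 summed to 363 to 422 CPM in Flox and 386 to 448 CPM in F4MKO livers, which overlapped. The part of these cell types in the S100 values was not tested. Comparing F4MKO + FSTL1 with F4MKO livers, hepatocyte markers had 2 of 10 called higher (Serpina1c and Cyp2e1) and red blood cell markers 1 of 5 (Alas2). Of all tested genes 14.4% were called in this comparison, and 11.2% were called lower. The single tested muscle marker, Mylpf, was not called.

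**Figure D4:**
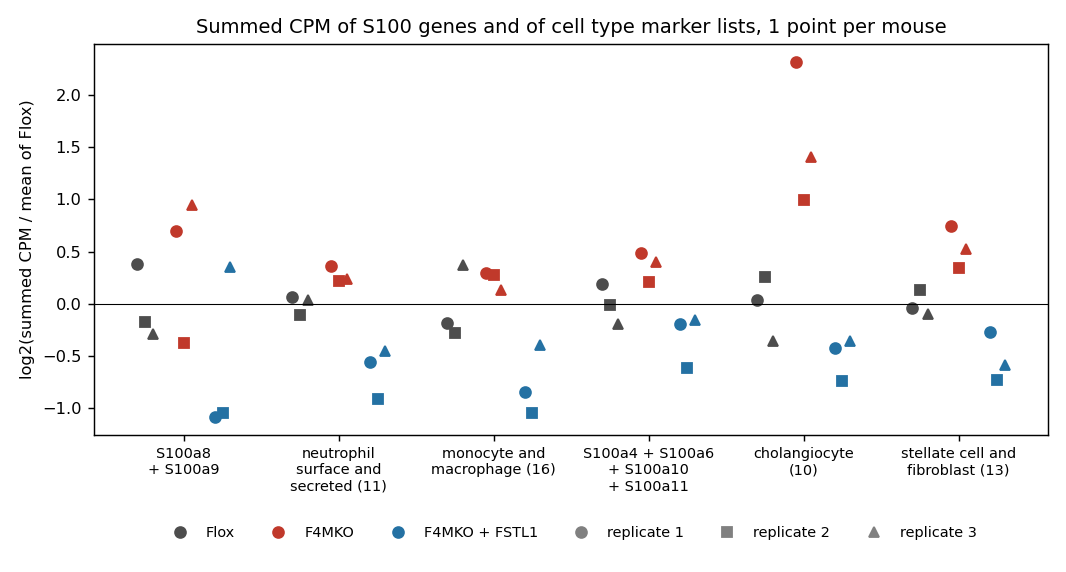
Summed CPM of S100a8 and S100a9, of S100a4, S100a6, S100a10 and S100a11, and of marker lists (number of summed genes in brackets), as log2 of the value over the mean of the Flox livers, with a point per mouse. The cholangiocyte, stellate cell, and neutrophil surface and secreted sums separate F4MKO from the other livers. So does the sum of S100a4, S100a6, S100a10 and S100a11, a set chosen with earlier results of these data known. Its margin is narrow (highest Flox 250.5 CPM, lowest F4MKO 253.5 CPM). The macrophage sums overlap between Flox and F4MKO livers. S100a8 with S100a9 overlaps between all groups, with F4MKO replicate 2 (2.14 CPM) just below the lowest Flox liver (2.26 CPM).

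The rest of the family was close to absent. S100b, S100a3, S100a7a and S100a14 had at most 3 reads in any library, and S100a5 and S100z had no row in the table. S100g, the intestinal calcium carrier calbindin-D9k, had 3, 7 and 4 reads in Flox, 20, 12 and 9 reads in F4MKO, and 3, 3 and 4 reads in F4MKO + FSTL1 livers and did not pass the filter for testing. Of the S100-fused genes only Tchh was tested, with log2 fold changes of 0.15, 0.18 and 0.33 that did not pass.

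Between the outermost members, at chr3:90511034-93564645, RefSeq placed 86 other genes, most of them of the epidermal differentiation complex, and 3 were tested in liver. Sprr1a, a cornified envelope gene also known as an injury-induced gene, lies between the S100 blocks (chr3:92483954-92485881). It averaged 0.443 CPM in Flox, 3.49 CPM in F4MKO and 0.323 CPM in F4MKO + FSTL1 livers, and was higher in F4MKO than in Flox livers (log2 fold change 2.96, standard error 0.43, edgeR adjusted p = 0.0351) and lower in F4MKO + FSTL1 than in F4MKO livers (-3.41, standard error 0.46, edgeR adjusted p = 0.00140). Lor and Tchh, the other tested genes of the interval, were not called.

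The genes whose pattern over the 9 livers was most like that of the S100 genes were found by the root mean square difference of standardized log2 CPM. The mean profile of S100a8 and S100a9 was closest to Ift81 (0.198), followed by Arl5c (0.300), Abracl (0.305), Atp6v0e (0.305) and Lmo4 (0.320). The mean profile of the other 7 was closest to Lsm8 (0.251), Ccdc9 (0.267), Ppp2r3c (0.285), Calm2 (0.286), a calmodulin gene, and Psmg4 (0.329). Since those 7 moved in different directions, their members were also matched singly, a choice made after the values were seen. S100a11 was closest to Ccdc120 (0.129) and Klf6 (0.169), S100a6 to Ccr7 (0.158), S100a8 to Clec4d (0.170), a C-type lectin of neutrophils and monocytes, S100a1 to Alad (0.169), a heme synthesis enzyme, and S100a13 to the mitochondrial ribosome gene Mrps16 (0.118). S100a9 was closest to Dmtn (0.255), S100a4 to Prx (0.280) and S100a10 to Gm15753 (0.169). S100a16 had no match closer than 0.312 (Fuz). These values describe 9 libraries in 3 groups, and each was selected as the smallest of over 14370 genes.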

How the data were processed

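Liver RNA of 9 mice, 3 per group, was sequenced as paired reads of 150 bp on BGIseq500. The submitters' processing notes name Trim Galore 0.6.7, HISAT2 2.2.1, featureCounts 2.0.1 and mm10. The authors deposited whole-number read counts per gene, not normalized. Annotation, strand and multi-mapping settings are not given in the sources used here. The labels' WT was taken as the Flox group.

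Counts of all 9 libraries were fitted together in R 4.3.3 with edgeR 4.0.16 (quasi-likelihood test, a mean per group, TMM normalization, common biological coefficient of variation 0.150). The filter filterByExpr kept genes with 10 reads, or 0.432 CPM at the median depth, and 15 reads in total, in at least 3 libraries, and p-values were adjusted over 14379 genes. Values are mean ± SD of TMM-normalized CPM, log2 CPM used a prior count of 2, and 95% intervals used the t quantile of the fit. Levels per kb used the longest GENCODE vM21 transcript, found for 93.1% of tested genes, 13387 in all. The precision is limited by 3 mice per group and, for S100a4, S100a6, S100a8 and S100a9, by 9 to 120 reads per library.

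Named genes were drawn from the 9 members, the up to 3 called genes with the largest change in F4MKO + FSTL1 compared with F4MKO livers in each list (or, where none was called, the 2 most abundant), the 5 genes nearest to each mean profile, the tested genes of the interval, and Irf4 and Fstl1. Not every gene drawn from the cell type lists by this rule is printed. Ahnak, Myh9, Cacybp, Lor, Marco, Timd4, Clec4f, Vsig4, Cd5l, Adgre1 and the matches of single members were added after their values were seen. Members and lists were chosen with earlier results of these data known. Same-numbered libraries came from different mice. Their deviations from the group means correlated from -0.0985 to 0.111 for replicates 1 and 2, and from 0.169 to 0.304 for replicate 3.

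Alternatives were DESeq2 1.42.0, its size factors in edgeR, no filter, no fold-change threshold, the replicate number as a block, a fit corrected for transcript length and GC content, both together, only the 6 libraries compared, and each library left out. The fits were tested on simulated data.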

Additional observations from a re-analysis of the deposited data

How the results depend on the processing

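Each log2 fold change of the 9 genes was recomputed under 16 alternatives, 144 values per comparison. The direction and the side of the threshold were the same in 133 values for F4MKO compared with Flox, 128 for F4MKO + FSTL1 compared with F4MKO and 136 for F4MKO + FSTL1 compared with Flox livers. S100a11 fell in F4MKO + FSTL1 compared with F4MKO livers under all of them, with edgeR or DESeq2 adjusted p from 5.98e-20 to 0.00402. The number of differentially expressed S100 genes in F4MKO compared with Flox livers was 1, and 0 with only the 6 libraries compared, where fewer samples estimate the spread, and 0 to 1 when a library was left out. In F4MKO + FSTL1 compared with F4MKO livers it was 2, then 1 with only 6 libraries, 1 to 4 when a library was left out, 3 without a filter and 3 with the length and GC correction (both adding S100a9), and 5 with that correction and the replicate block together, which added S100a4, S100a8 and S100a9 (the cause was not tested). In F4MKO + FSTL1 compared with Flox livers it was 0, then 1 (S100a11) with DESeq2 and without a filter, and 0 to 1 when a library was left out. The replicate block alone gave 1, 2 and 0, so it changed no other call. In their deviations, replicates 1 and 2 correlated from -0.0985 to 0.111 between groups, and the numbers were not taken to pair the libraries. The replicate 3 libraries correlated positively in all 3 comparisons (0.169, 0.304 and 0.206), and what they share was not tested. Directions turned only for values near 0 when a library was left out, which then ranged for S100a16 from -0.041 to 0.105, from -0.077 to 0.069 and from -0.034 to 0.064 in the 3 comparisons, and in F4MKO + FSTL1 compared with Flox livers from -0.039 to 0.139 for S100a1 and from -0.106 to 0.143 for S100a13. The low counts of S100a4, S100a6, S100a8 and S100a9 limit what the tests can show for them.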
